A study of Mus musculus with 30 samples.

Results

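The comparison set 2 chemically unrelated compounds against each other in livers of male mice that lack both CAR (the constitutive androstane receptor, gene Nr1i3) and PXR (the pregnane X receptor, gene Nr1i2). One group of these CARko/PXRko mice received cyproterone acetate (CPA), labelled 160 mg/kg and 3 days, and the other received 1,4-dichlorobenzene (DCB), labelled 600 mg/kg and 3 days. Members were taken by their labels, which gave 3 arrays per compound, 6 of the 30 arrays of the study. All the mice were adult, on a C57BL/6J background and dosed once a day by gavage, and livers were taken a day after the last dose. CARko/PXRko mice that received corn oil (3 arrays, labelled 3 days) are given beside them. Wild type (WT) mice and hCAR/hPXR mice, which carry human CAR and PXR in place of the mouse receptors, gave the same 2-compound comparison with 3 arrays per group. There the CPA arrays are labelled 6 days and the DCB arrays 3 days, although the protocol describes 3 days for every treatment. Corn oil arrays of WT, hCAR/hPXR and PXR knockout mice, 3 per group and labelled 3 days, also entered the shared model. WT corn oil was the baseline for marker levels. The doses of CPA and DCB differ, so each value below compares the treatments as given and not equal doses. Whether each array holds RNA of its own mouse is not stated, so p-values here reflect only the scatter among these arrays, which may be partly technical.

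CAR and PXR are nuclear receptors of the hepatocyte that sense foreign chemicals and bile acids and switch on genes of drug metabolism, such as the cytochromes P450 Cyp2b10 and Cyp3a11. CPA is a synthetic steroid with progestin and antiandrogen activity and is known in rodents as a PXR activator, and DCB is a chlorinated benzene known as a CAR activator. Mice without both receptors show what each chemical does to the liver by other routes, such as steroid receptors or NRF2, the transcription factor that answers electrophiles and oxidants.

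RNA was measured on Affymetrix arrays as log2 signal after RMA, so a difference of 1 log2 unit is a doubling on the array scale. Array medians lay between 5.36 and 5.44 log2 units, and the mean correlation of a CARko/PXRko array with the others of its group lay between 0.94 and 0.98. Both targeted genes were lower in the CARko/PXRko livers than in WT. The mean Nr1i2 signal was 7.52 in WT corn oil livers and 4.58, 4.66 and 4.41 in CARko/PXRko livers on corn oil, CPA and DCB. The mean Nr1i3 signal was 9.59 in WT corn oil livers and 6.24, 6.81 and 6.30 in the same 3 groups. Whether these probes lie in the deleted parts is not given in the sources used here. Hepatocyte markers (17 measured) were high in every group, with mean levels from 13.57 to 13.83 on the CPA arrays and from 13.47 to 13.64 on the DCB arrays. They were not even: 14 of the 17 were higher under CPA than under DCB, with a median difference of 0.14. Of these, 2 (Fga and Fgb, also on the acute phase list below) passed an adjusted p under 0.05 by limma.

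Some arrays also carried transcripts of other tissues, and more of them were DCB than CPA arrays. The median over 27 skeletal muscle markers, set against WT corn oil livers, was 5.66 log2 units higher on DCB replicate 3, 1.59 higher on DCB replicate 2 and 6.02 higher on corn oil replicate 2, and it stayed within 0.14 on the CPA arrays and DCB replicate 1. DCB replicate 3 was also 5.67 higher in brown fat markers and 4.23 higher in adrenal cortex markers, and DCB replicate 2 was 3.18 higher in squamous epithelium markers. Acta1, the actin of skeletal muscle, gives the pattern in single values: it measured 5.39, 11.33 and 14.68 on the DCB arrays and 5.38, 5.18 and 5.54 on the CPA arrays, and its difference was not called (-5.10 ± 1.79, SE; adjusted p = 0.078). Of the 25 muscle markers tested, 1 (Tpm2) was called lower under CPA, with a median difference of -2.43 over the list. Without DCB replicate 1 there were 16, and the call of Tpm2 was lost without any of the other 5 arrays (adjusted p up to 0.25). Results are therefore also given without the 2 arrays over 5 log2 units in muscle markers (corn oil replicate 2 and DCB replicate 3), and without all 4 arrays over 1, which adds DCB replicate 2 and an array of PXR knockout mice and leaves 1 DCB array.

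**Figure D1:**
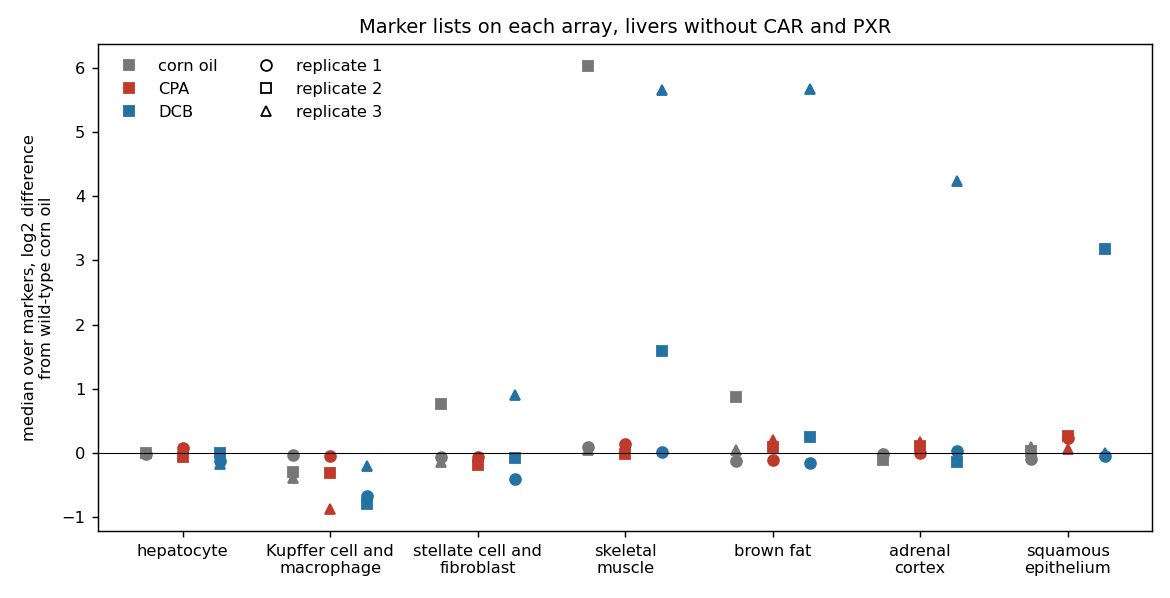
Median over the markers of 7 tissues or cell types on each CARko/PXRko array, as the log2 difference from the mean of WT corn oil livers (y axis); colour gives the treatment and shape the replicate. The CPA arrays lie near 0 for the markers of tissues other than liver, while DCB replicate 3, DCB replicate 2 and corn oil replicate 2 rise in 1 or more of these.

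Transcript levels differed between CPA and DCB livers in many genes, in mice without CAR and PXR. Of 12795 genes tested, 972 (7.60%) differed at an adjusted p under 0.05: 419 (3.27%) were higher under CPA and 553 (4.32%) were lower. The median difference over all genes was -0.03, and 307 of the called genes differed more than 2-fold. The 3 CPA arrays and the 3 DCB arrays did not overlap for 2965 genes (23.2%), among them 890 of the called genes. Leaving out arrays cannot reverse such a difference, so a kept direction is no support for these genes. Non-overlap was also a condition for the 30 genes named for the largest differences. Each count of list members below is to be set against the 7.60% called, and non-overlap against the 23.2%. A second quantile normalization gave about as many calls (988) but turned the split to 595 higher and 393 lower. Without the 2 arrays highest in muscle markers, 504 genes were called (174 higher and 330 lower), 410 of them called before. Without all 4 arrays, 118 were called (47 higher and 71 lower), 98 of them called before, and 971 of the 972 differences kept their direction. Of the 30 genes named for the largest differences, 29 were called without the 2 arrays and 15 without all 4. Leaving out 1 of the 6 arrays gave from 439 calls (without CPA replicate 1) to 1370 (without CPA replicate 3). With only the 6 arrays in the fit, 7 genes were called, and 1768 had an unadjusted p under 0.05.

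Set against corn oil in the same mice, the compounds differed in how many genes moved. CPA against corn oil gave 702 called genes (5.49%), 279 higher and 423 lower. DCB against corn oil gave 15 (0.117%), all higher, while 1036 genes had an unadjusted p under 0.05. The DCB count ran from 6 (without corn oil replicate 1 or 3) to 72 (without DCB replicate 1), and that of CPA from 282 (without corn oil replicate 1) to 929 (without CPA replicate 3). The 2 comparisons share the corn oil arrays and each shares its treated arrays with the direct comparison, so their values are given side by side only.

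**Figure D2:**
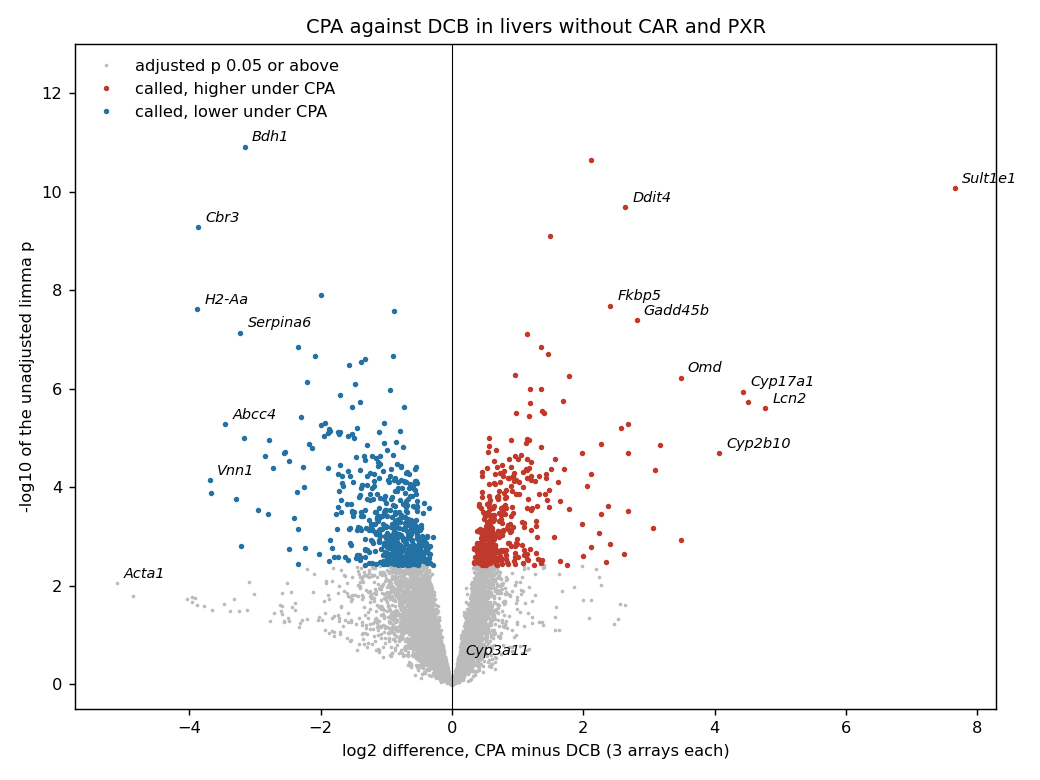
Each point is 1 of the 12795 genes tested, with the log2 difference CPA minus DCB (x axis) and the −log10 of the unadjusted limma p (y axis); red and blue points passed an adjusted p under 0.05. Sult1e1 lies farthest to the right, at 7.66, and Cbr3 and H2-Aa are among the genes farthest to the left of those called, while Acta1 lies at -5.10 without a call and Cyp3a11 near 0.

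The largest rise under CPA was in Sult1e1, the sulfotransferase that inactivates estrogens. It measured 12.82, 13.04 and 10.73 on the CPA arrays, 4.63, 4.51 and 4.48 on the DCB arrays and 3.88, 3.99 and 4.31 on corn oil. The CPA arrays stood apart from all others, and the difference was 7.66 ± 0.69 (SE, log2; 3 arrays per group; adjusted p = 3.6e-07), about 202-fold. Cyp17a1, a steroid hydroxylase and lyase of androgen synthesis, measured 13.11, 12.95 and 12.63 under CPA against 8.27, 10.24 and 6.86 under DCB and 7.82, 9.07 and 6.88 on corn oil. The groups did not overlap, and the difference was 4.44 ± 0.69 (adjusted p = 0.000495). Both genes belong to a list of 17 female-biased liver genes tested, of which 3 were higher under CPA (with Fmo2, a flavin monooxygenase, at 2.57) and 2 lower, Gas6, a ligand of TAM receptor kinases, and Abcd2, a peroxisomal fatty acid transporter; the list's median was 0.25. Of 18 male-biased genes tested, 2 were lower and 0 higher, with a median of -0.39: Elovl3, a fatty acid elongase that is also a brown fat gene, and Nudt7, a peroxisomal coenzyme A hydrolase. The call of Elovl3 was lost without CPA replicate 1, DCB replicate 2 or DCB replicate 3 (adjusted p from 0.081 to 0.13).

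Cyp2b10, the classic CAR target, rose under CPA in these mice without CAR. It measured 10.30, 11.22 and 8.38 under CPA, 6.00, 5.66 and 6.04 under DCB and 5.28, 7.73 and 6.37 on corn oil, so every CPA array was above every other array. The difference was 4.07 ± 0.77 (adjusted p = 0.00301), about 16.8-fold. Without all 4 arrays with muscle transcripts the difference was 3.97 and not called (adjusted p = 0.09). DCB against corn oil was -0.56 (adjusted p = 0.92). Cyp3a11, the main PXR target, sat near the top of the signal range in all 9 arrays, from 14.39 to 14.79, with a difference of 0.09 ± 0.09 (adjusted p = 0.54). Since the highest signal on any array lay between 15.2 and 15.3, a rise of Cyp3a11 could be compressed. Cyp3a13 was higher under CPA by 1.50 ± 0.30 (adjusted p = 0.00437), with 12.96, 12.58 and 13.50 against 11.41, 12.15 and 10.98.

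Among 11 CYP2B and CYP2C enzymes tested, 4 were higher under CPA (Cyp2b10, Cyp2c39, Cyp2c54 and Cyp2c68) and 1, Cyp2c23, was lower, with a median of 1.07. Cyp2c39 measured 8.59, 8.98 and 7.89 under CPA and 7.51, 7.40 and 6.29 under DCB (1.42 ± 0.31, adjusted p = 0.00796). Leaving out DCB replicate 3 left 1 of these genes called, and Cyp2c39 then had an adjusted p of 0.059. The call of Cyp2c68 was lost without CPA replicate 1 or 2 or DCB replicate 2 or 3, and that of Cyp2c23 without CPA replicate 1 or 2 or DCB replicate 1 or 3. Leaving out CPA replicate 3 instead gave 7 higher. Without the 2 arrays highest in muscle markers 1 was called, and without all 4 arrays 0 were called by limma (4 at an unadjusted p under 0.05), with a median of 0.23. Sulfotransferases other than Sult1e1 also rose: Sult1d1, which sulfates catecholamines, by 2.27 ± 0.41 (adjusted p = 0.00238) and Sult1b1, which sulfates thyroid hormones and phenols, by 2.06 ± 0.44 (adjusted p = 0.00631). The list of 22 glucuronidation and sulfation genes had 4 higher (with Ugt2a3, a glucuronosyltransferase) and 1 lower (Ugdh, described with the NRF2 targets), and its median was -0.14. Cyp39a1, an oxysterol hydroxylase of bile acid synthesis, was higher by 2.68 ± 0.46 (adjusted p = 0.00143), with 11.68, 11.21 and 11.79 under CPA and 7.64, 9.97 and 9.02 under DCB. Of 14 bile acid synthesis genes, 3 were called, all higher: Cyp39a1, Akr1d1, a steroid reductase, and Baat, which conjugates bile acids to amino acids. The calls of Akr1d1 and Baat were lost without CPA replicate 1, CPA replicate 2 or DCB replicate 3 (adjusted p up to 0.13). Probe sets of close relatives in the Cyp2b, Cyp2c, Sult, Ugt2b and Gstm families can respond to each other's transcripts. The other probe sets of Cyp2b10 differed by 5.81 and 5.70, against 4.07 for the one used.

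**Figure D3:**
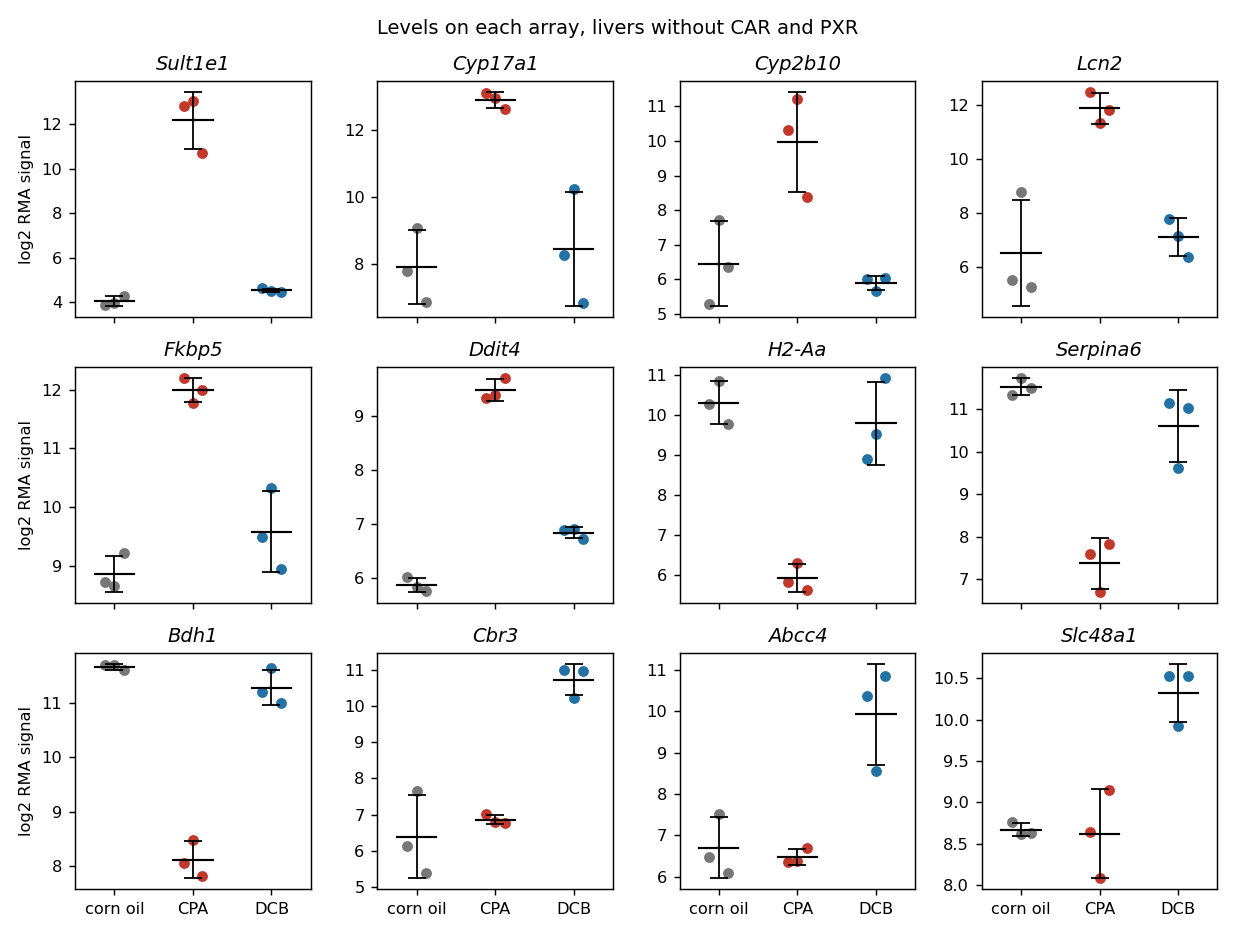
Log2 RMA signal (y axis, own range in each panel) of 12 genes on each CARko/PXRko array on corn oil, CPA and DCB; points are arrays, horizontal lines are group means and bars are 1 SD. Sult1e1, Cyp17a1, Cyp2b10, Lcn2, Fkbp5 and Ddit4 are high on the CPA arrays, H2-Aa, Serpina6 and Bdh1 are low there, and Cbr3, Abcc4 and Slc48a1 are high on the DCB arrays.

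Genes known to respond to glucocorticoids in liver were higher under CPA. Of 25 tested, 8 were called, all higher, and the median was 1.10. Ddit4, an inhibitor of mTOR signalling, measured 9.33, 9.39 and 9.70 under CPA, 6.89, 6.89 and 6.71 under DCB and 6.01, 5.83 and 5.75 on corn oil. The 3 groups were separate, and CPA minus DCB was 2.64 ± 0.25 (adjusted p = 6.67e-07). Fkbp5, a chaperone of steroid receptors, measured 12.197, 11.778 and 11.996 under CPA against 9.48, 10.32 and 8.94 under DCB (2.41 ± 0.29, adjusted p = 3.31e-05). Lpin1, a phosphatidate phosphatase, was higher by 1.98 ± 0.37 (adjusted p = 0.00301), with 12.51, 12.03 and 12.52 against 10.11, 10.26 and 10.75. These 3 genes did not overlap between the compounds. The other called members were Lcn2, the zinc finger repressor Zbtb16 (1.62), the transcription factor Cebpd (1.78), the metallothionein Mt2 (3.07) and the cell cycle inhibitor Cdkn1a (1.99). Tsc22d3, known as GILZ, was higher by 1.15 (adjusted p = 0.0541) and Tat, a tyrosine-degrading enzyme, by 0.31 (adjusted p = 0.61), and neither was called. The calls of Mt2 and Cdkn1a depended on single arrays: without CPA replicate 1 or DCB replicate 1 the adjusted p of Mt2 was 0.069 or 0.063, and that of Cdkn1a was from 0.095 to 0.14 without any of 4 arrays (CPA replicates 1 and 3, DCB replicates 1 and 3). Serpina6, the corticosteroid-binding globulin of plasma, was lower under CPA, with 7.60, 6.70 and 7.83 against 11.16, 9.62 and 11.02 (-3.22 ± 0.42, adjusted p = 7.57e-05). Hsd11b1, which regenerates active glucocorticoid inside hepatocytes, was higher by 0.83 ± 0.18 (adjusted p = 0.00719). Its difference was 0.76 without the 2 arrays highest in muscle markers and 0.49 without all 4 arrays with muscle transcripts. The receptor itself, Nr3c1, differed by -0.16 and was not called. Without the 2 arrays highest in muscle markers, 7 members were called, and without all 4, 6.

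Acute phase genes, which the liver secretes in inflammation, were also higher under CPA. Of 23 tested, 13 were called, all higher, and the median was 0.77. Lcn2, a siderophore-binding protein, measured 12.51, 11.35 and 11.82 under CPA and 7.79, 7.17 and 6.40 under DCB (4.77 ± 0.78, adjusted p = 0.000846), while corn oil gave 5.52, 8.79 and 5.27, the middle value on the array with muscle transcripts. Lbp, which binds bacterial lipopolysaccharide, measured 11.71, 10.57 and 11.86 against 9.62, 10.22 and 9.21 (1.70 ± 0.27, adjusted p = 0.000696). Orm3, a plasma glycoprotein, measured 8.85, 9.64 and 8.39 against 6.47, 6.12 and 6.21 (2.69 ± 0.51, adjusted p = 0.00301). For all 3 genes the CPA arrays were above the DCB arrays. Abundant members moved less: Hp (haptoglobin) by 0.46, Orm1 by 0.93 and the fibrinogen chains Fga, Fgb and Fgg by 0.42, 0.34 and 0.42, and the calls of Fga and Fgb were lost without CPA replicate 1 or 3, DCB replicate 2 or 3 or, for Fgb, DCB replicate 1 (adjusted p up to 0.13). The serum amyloid genes Saa1 (2.64, adjusted p = 0.13) and Saa2 (2.56, adjusted p = 0.13) had larger differences that were not called. The remaining called members were Apcs, Cp (ceruloplasmin), Il1r1 (an interleukin receptor), Serpina3n and Itih3. Without the 2 arrays highest in muscle markers 9 members were called, without all 4 arrays 2, and without CPA replicate 1 there were 8.

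Of 28 complement and coagulation factors, 7 were called, all higher under CPA than under DCB, with a median of 0.35. Against corn oil the list's median was below 0 for both compounds, at -0.15 under CPA and -0.44 under DCB. F9, a clotting factor, measured 12.67, 12.70 and 12.38 under CPA, 11.60, 11.39 and 10.70 under DCB and 11.72, 11.36 and 11.86 on corn oil (1.36 ± 0.18, adjusted p = 0.000122). Its CPA arrays stood above the rest. Cfi, a complement inhibitor, showed the reverse layout: corn oil gave 13.77, 13.83 and 13.83, CPA 14.01, 13.75 and 13.86, and DCB 13.46, 13.12 and 13.35 (0.56 ± 0.10, adjusted p = 0.00247). The other called members were F13b, Masp2, F10, F2 (prothrombin) and F7. The calls of F13b and Masp2 were lost without DCB replicate 3, and that of F13b also without CPA replicate 2. The list's count fell to 2 without DCB replicate 3 and rose to 10 without DCB replicate 1. It was 3 without the 2 arrays highest in muscle markers and 1 without all 4, where the median was 0.06.

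**Figure D4:**
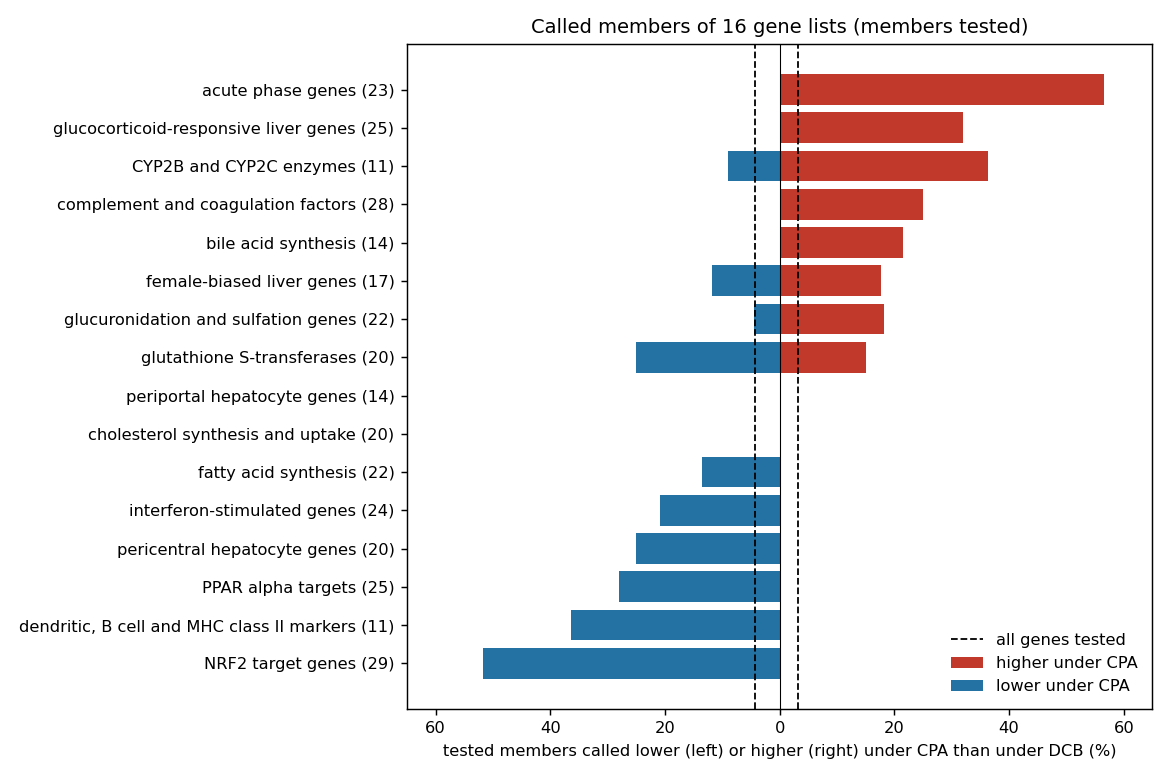
Share of the tested members of 16 gene lists (number tested in brackets) called higher (red, right) or lower (blue, left) under CPA than under DCB, in percent; dashed lines give the shares over all genes tested, 3.27% higher and 4.32% lower. Acute phase genes have the longest bar to the right (13 of 23) and NRF2 targets the longest to the left (15 of 29).

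NRF2 target genes were higher under DCB than under CPA. NRF2 binds antioxidant response elements in front of genes of glutathione synthesis, carbonyl reduction, efflux and the pentose phosphate pathway. Of 29 targets tested, 15 were called, all lower under CPA, and the median was -0.89. Cbr3, a carbonyl reductase, measured 10.99, 10.22 and 10.96 under DCB, 7.01, 6.79 and 6.78 under CPA and 6.13, 7.65 and 5.40 on corn oil. Only the DCB arrays stood apart, and CPA minus DCB was -3.86 ± 0.38 (adjusted p = 1.34e-06). Abcc4, an efflux pump for conjugated compounds, measured 10.38, 8.54 and 10.86 under DCB, 6.35, 6.38 and 6.69 under CPA and 6.48, 7.53 and 6.10 on corn oil (-3.45 ± 0.59, adjusted p = 0.00143). Slc48a1, a heme transporter, measured 10.53, 9.92 and 10.52 under DCB against 8.64, 8.09 and 9.15 (-1.70 ± 0.27, adjusted p = 0.00056), and Srxn1, sulfiredoxin, 10.73, 10.64 and 10.08 against 8.90, 8.86 and 9.37 (-1.44, adjusted p = 0.00162). Gclc, the catalytic subunit of glutathione synthesis, averaged 11.3 under CPA, 13.1 under DCB and 12.2 on corn oil (-1.73 ± 0.30, adjusted p = 0.00172).

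The other called NRF2 members were Ugdh, which makes UDP-glucuronate, the glutathione S-transferases Gsta4, Gstm2 and Gstm4, Vat1, Blvrb (biliverdin reductase), Taldo1 and Tkt of the pentose phosphate pathway, Fth1 (ferritin heavy chain) and Gsr (glutathione reductase). Their differences ran from -1.72 for Gsta4 to -0.29 for Fth1. Members did not all follow: Nqo1, a quinone reductase, differed by 0.15 (adjusted p = 0.81), Hmox1, heme oxygenase, by 0.17 (adjusted p = 0.86) and Gclm, the other subunit of glutathione synthesis, by -0.50 (adjusted p = 0.12). Leaving out 1 array at a time left 11 to 15 members called, the call of Fth1 being lost without any of 4 arrays (CPA replicates 1 and 2, DCB replicates 1 and 3; adjusted p up to 0.078). Without the 2 arrays highest in muscle markers 11 members were called, and without all 4, 9.

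NRF2 targets were the largest group among the genes called for DCB against corn oil, which uses the same DCB arrays. Of the 15 genes called there, 9 were on the NRF2 list: Cbr3 (4.33), Abcc4 (3.23), Srxn1 (1.86), Cbr1 (1.66), Slc48a1 (1.65), Gstm2 (1.47), Vat1 (1.41), Ugdh (1.17) and Fth1 (0.38). That list holds 29 of the 12795 genes tested. With only the DCB and corn oil groups in the fit, limma called 0 genes, and 706 had an unadjusted p under 0.05. Cbr1, the second carbonyl reductase, stood apart from its relative Cbr3. It measured 12.83, 12.73 and 12.48 under DCB, 12.64, 12.85 and 12.07 under CPA and 11.16, 11.09 and 10.80 on corn oil. It was thus higher than corn oil under both compounds, by 1.66 under DCB (adjusted p = 7.54e-05) and by 1.50 under CPA (adjusted p = 7.3e-05), and CPA minus DCB was -0.16 (adjusted p = 0.63). The other 6 genes called against corn oil were Afp, Fbxo2, an F-box protein that binds glycoproteins (2.50), Aprt, which salvages adenine (1.04), Abhd4, a lipid hydrolase (0.97), the proteasome subunit Psmb5 (0.68) and Sbsn. Sbsn, suprabasin of squamous epithelium, measured 6.01, 9.38 and 10.03 on the DCB arrays, high on the 2 arrays that also carried other tissues. Afp, the fetal albumin, measured 8.80, 9.47 and 8.78 under DCB, 6.56, 7.05 and 5.25 under CPA and 6.02, 7.17 and 5.34 on corn oil, so CPA minus DCB was -2.73 ± 0.54 (adjusted p = 0.00435). Of the 15 genes, 13 were lower under CPA than under DCB and called, against 4.32% of all genes tested. Aprt and Cbr1 were the exceptions. The 15 were picked for high values on the same DCB arrays, so this count is no separate support.

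Promoter sequence was available for 11 of the 15 called NRF2 targets. The 250 bases before the start were searched on both strands for the core of the antioxidant response element, TGACNNNGC, which 10.2% of all promoters in the table hold. It was present in 3 of the 11 (Abcc4, Ugdh and Vat1) and not in the windows of Cbr3, Srxn1 or the other 6. A gene counted if any of its starts had a match, while the 10.2% is per promoter, so the units differ. A match is a description of the letters and not a bound site. Abcc4 is shown because it carried a large DCB-side difference, and Ugdh because it holds 2 matches (RefSeq, build GRCm38.p6, minus strand, written 5′ to 3′ with the matches in capitals). The Abcc4 window is chr14:118706220-118706469, of the more upstream of its 2 starts, and that of Ugdh is chr5:65435843-65436092.
Abcc4: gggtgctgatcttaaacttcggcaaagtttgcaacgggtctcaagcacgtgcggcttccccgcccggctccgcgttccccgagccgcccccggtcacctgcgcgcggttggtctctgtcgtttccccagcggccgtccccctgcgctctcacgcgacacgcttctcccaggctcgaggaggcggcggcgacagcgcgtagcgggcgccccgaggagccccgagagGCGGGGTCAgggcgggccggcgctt
Ugdh: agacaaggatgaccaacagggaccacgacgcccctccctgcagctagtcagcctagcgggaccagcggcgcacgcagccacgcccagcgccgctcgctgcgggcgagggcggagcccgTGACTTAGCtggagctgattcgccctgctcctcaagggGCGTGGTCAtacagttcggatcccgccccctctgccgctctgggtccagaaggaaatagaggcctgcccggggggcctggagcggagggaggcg
The match of Abcc4 begins 25 bases before the start, and those of Ugdh 132 and 94 bases before it.

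Some genes of fat burning were lower under CPA. Of 25 PPARα targets tested, 7 were called, all lower, with a median of -0.93. PPARα is the nuclear receptor that drives fatty acid oxidation in fasting. Vnn1, a pantetheinase, measured 6.17, 8.18 and 6.55 under CPA, 10.35, 12.21 and 9.39 under DCB and 10.93, 9.24 and 11.12 on corn oil (-3.69 ± 0.77, adjusted p = 0.00559). The CPA arrays lay below all the others. Hadhb and Hadha, the subunits of the mitochondrial trifunctional protein, differed by -1.15 ± 0.22 (adjusted p = 0.00345) and -0.93 ± 0.18 (adjusted p = 0.00437). The other called members were Acaa1b, a peroxisomal thiolase whose call was lost without CPA replicate 1 or DCB replicate 2 (adjusted p = 0.084 and 0.054), Plin2 and Cidec, which coat lipid droplets, and Fabp1, a fatty acid carrier. Cidec, also a fat tissue gene, had means of 5.00 under CPA, 8.22 under DCB and 4.73 on corn oil. Pdk4, which spares glucose, differed by -2.45 without a call (adjusted p = 0.097). Without all 4 arrays with muscle transcripts the list's median was -0.02, Hadhb differed by -0.51 and Hadha by -0.46, and 0 members were called by limma (7 at an unadjusted p under 0.05); Vnn1 then differed by -3.39 (adjusted p = 0.11). The count was 4 without the 2 highest of these arrays, fell to 3 without CPA replicate 1 and rose to 11 without DCB replicate 1.

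Bdh1, the enzyme that makes the ketone body hydroxybutyrate, was lower under CPA. It measured 8.05, 8.49 and 7.82 under CPA, 11.193, 11.629 and 10.997 under DCB and 11.69, 11.70 and 11.60 on corn oil. No CPA array came near the others, and the difference was -3.15 ± 0.26 (adjusted p = 1.48e-07), about 8.9-fold. Car3, a carbonic anhydrase of hepatocytes that is also abundant in muscle and fat, measured 11.43, 12.29 and 7.47 under CPA and 14.61, 13.16 and 14.45 under DCB (-3.68 ± 0.81, adjusted p = 0.00777). Its CPA arrays spanned a wide range, all below DCB. Of 22 fatty acid synthesis genes, 3 were called lower (Elovl2, Elovl5 and Fads1, which lengthen and desaturate fatty acids), with a median of -0.74, and each lost its call without at least 1 single array, so that 0 to 2 stayed called. Without the 2 arrays highest in muscle markers 1 was called, and without all 4, 0 by limma (4 at an unadjusted p under 0.05). Of 20 cholesterol synthesis genes, 0 were called by limma (2 at an unadjusted p under 0.05), with a median of -0.47. Of 20 pericentral hepatocyte genes 5 were lower and 0 higher, and of 14 periportal genes 0 were called by limma (4 at an unadjusted p under 0.05). The 5 were Aldh1a1, a retinal dehydrogenase, the amino acid transporter Slc1a4, the Wnt feedback ligases Znrf3 and Rnf43, and the transcription factor Tbx3. Another Znrf3 probe set above the filter went the other way, by 0.43, against -1.02 for the one used. Aldh1a1 was called without any of the 6 arrays, while Slc1a4 lost its call without DCB replicate 3, Znrf3 without CPA replicate 1 or 2 or DCB replicate 2, and Tbx3 without CPA replicate 2 or 3 or DCB replicate 3. The pericentral count was 5 without the 2 arrays highest in muscle markers and 2 without all 4. Glul, the defining pericentral enzyme, differed by 0.10 and was not called.

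Genes of antigen presentation by MHC class II were lower under CPA. H2-Aa, a chain of the class II molecule, measured 5.81, 6.29 and 5.62 under CPA, 8.91, 9.53 and 10.93 under DCB and 10.28, 10.86 and 9.78 on corn oil. The CPA arrays lay below all the others, and the difference was -3.88 ± 0.47 (adjusted p = 3.39e-05), about 14.7-fold. The other H2-Aa probe sets above the filter gave smaller differences, of -2.04, -1.75 and -0.86. H2-Eb1, a chain of the second class II molecule, measured 6.34, 6.05 and 5.42 against 7.79, 8.21 and 9.49 (-2.56 ± 0.48, adjusted p = 0.00301). Cd74, the invariant chain, measured 6.19, 6.43 and 6.06 against 7.26, 7.60 and 8.47 (-1.55 ± 0.32, adjusted p = 0.00507). H2-Ab1 differed by -2.35 ± 0.51 (adjusted p = 0.00762), with an adjusted p of 0.057 without DCB replicate 3. These 4 were the only calls among 11 dendritic cell, B cell and class II markers tested, whose median was -0.47. All 4 were called without the 2 arrays highest in muscle markers. Without all 4 arrays only H2-Aa was called (-3.00, adjusted p = 0.014), while H2-Eb1 (-1.86, adjusted p = 0.15), Cd74 (-1.04, adjusted p = 0.20) and H2-Ab1 (-1.39, adjusted p = 0.24) were not. The mean level over 13 such markers ran from 5.62 to 5.76 on the CPA arrays, from 6.31 to 6.86 on DCB and from 6.54 to 6.85 on corn oil. In whole liver, fewer cells of a type and less RNA per cell cannot be told apart.

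Promoters of H2-Aa and H2-Eb1 are shown because both fell together; class II promoters are known to carry a Y box, bound by NF-Y. The letters CTGATTGG, searched on both strands, were in both windows, against 3.83% of all promoters in the table. Only these 2 of the 4 called class II genes were searched, and Cd74 and H2-Ab1 were not. The windows are chr17:34287824-34288073 on the minus strand for H2-Aa and chr17:34305617-34305866 on the plus strand for H2-Eb1 (RefSeq, GRCm38.p6, 5′ to 3′, match in capitals).
H2-Aa: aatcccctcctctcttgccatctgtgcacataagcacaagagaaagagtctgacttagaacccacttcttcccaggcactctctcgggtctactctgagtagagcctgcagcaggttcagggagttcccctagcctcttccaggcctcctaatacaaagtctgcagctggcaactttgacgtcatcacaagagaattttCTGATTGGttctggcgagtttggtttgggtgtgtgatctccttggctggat
H2-Eb1: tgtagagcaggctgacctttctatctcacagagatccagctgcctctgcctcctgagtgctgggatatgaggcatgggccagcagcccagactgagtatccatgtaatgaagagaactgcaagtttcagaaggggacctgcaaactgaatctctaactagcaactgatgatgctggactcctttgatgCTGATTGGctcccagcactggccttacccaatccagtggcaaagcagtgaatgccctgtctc
The match begins 51 bases before the start of H2-Aa and 62 bases before that of H2-Eb1.

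Other immune and non-hepatocyte genes moved less uniformly. Of 24 interferon-stimulated genes, 5 were called, all lower under CPA, with a median of -0.78. Ifit1, an interferon-induced RNA-binding protein, measured 5.37, 5.54 and 5.26 under CPA against 7.49, 6.16 and 6.67 under DCB (-1.38 ± 0.30, adjusted p = 0.00663). Usp18, which removes ISG15, measured 6.18, 6.70 and 6.69 against 7.93, 8.12 and 7.64 (-1.38 ± 0.29, adjusted p = 0.00607). Both were without overlap, and Ifit2, Xaf1 and the GTPase Gbp3 were the other members called; the adjusted p of Xaf1 was 0.058 without CPA replicate 1 and 0.075 without DCB replicate 3. The count ran from 3 (without CPA replicate 1) to 9 (without DCB replicate 2), and was 3 without the 2 arrays highest in muscle markers and 1 without all 4. Of 15 Kupffer cell and macrophage markers 1 was called: Marco, a scavenger receptor, higher by 2.28 ± 0.55 (adjusted p = 0.014, and 0.068 without CPA replicate 1), while Clec4f, the defining Kupffer cell marker, differed by 0.36 (adjusted p = 0.27) and the macrophage receptor Adgre1 by -0.24 (adjusted p = 0.46). Of 14 endothelial markers, Lyve1, a hyaluronan receptor of sinusoidal endothelium, was higher by 2.68 ± 0.63 (adjusted p = 0.013, and 0.051 without CPA replicate 1), and Kdr and Cdh5, of the vessel wall, and the DNase Dnase1l3 were lower. Kdr and Cdh5 lost their calls without DCB replicate 3, Cdh5 also without CPA replicate 2, and Dnase1l3 without CPA replicate 1 or 3 or DCB replicate 1 or 2.

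Among the remaining large differences, Gadd45b, a growth arrest and DNA damage gene and known CAR partner, was higher under CPA. It measured 11.47, 10.96 and 10.18 under CPA, 6.91, 8.51 and 8.75 under DCB and 6.98, 7.55 and 7.17 on corn oil (2.81 ± 0.35, adjusted p = 4.67e-05). Its relative Gadd45a was lower, with 6.76, 7.37 and 6.10 against 8.57, 8.28 and 8.49 (-1.70 ± 0.34, adjusted p = 0.00423). Neither gene overlapped between the compounds. Omd, a small proteoglycan, measured 8.55, 9.75 and 8.19 under CPA and 5.12, 5.66 and 5.27 under DCB (3.48 ± 0.52, adjusted p = 0.000318). Scara5, a ferritin-binding scavenger receptor, measured 10.54, 10.28 and 10.89 against 6.94, 7.08 and 8.39 (3.10 ± 0.62, adjusted p = 0.00451). Non-overlap was a condition for naming these 2, and another Scara5 probe set above the filter differed by 0.58. The other large rises were 1810053B23Rik (4.52), 4930459C07Rik (3.16), Mt2 (3.07) and Defb1, a defensin (2.62), whose call was lost without CPA replicate 1 or 2 or DCB replicate 1 or 3 (adjusted p from 0.09 to 0.11).

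Of 27 cell cycle genes tested, 1 was higher and 1 lower, near the 7.60% called over all genes, with a median of 0.04. At an unadjusted limma p under 0.05 there were 10, against 3403 of the 12795 genes. The higher one was Rrm2, a ribonucleotide reductase subunit, with an adjusted p of 0.074 without CPA replicate 2. The lower one was Ccnd1, cyclin D, with 7.01, 6.48 and 6.47 under CPA, 9.16, 8.66 and 10.56 under DCB and 9.42, 11.75 and 9.40 on corn oil (-2.81 ± 0.67, adjusted p = 0.0138). Its highest values fell on DCB replicate 3 and corn oil replicate 2. The difference was -2.25 without DCB replicate 3 (adjusted p = 0.078) and -2.50 without all 4 arrays with muscle transcripts (adjusted p = 0.15). For Gsn, gelsolin, the DCB arrays gave 7.97, 10.28 and 12.06, in the order of their muscle transcripts, and CPA 7.06, 7.32 and 7.06, and the difference of -2.96 became -1.98 without DCB replicate 3 (adjusted p = 0.083) and -0.82 without all 4 arrays (adjusted p = 0.25). Lgals1, galectin, measured 9.725, 9.320 and 12.003 under DCB against 7.71, 7.57 and 6.24 under CPA (-3.17 ± 0.57, adjusted p = 0.00203), with 9.80, 11.18 and 9.83 on corn oil, and differed by -2.55 without all 4 arrays (adjusted p = 0.055). Nrep, a regulator of growth factor signalling, measured 5.57, 7.05 and 4.51 under CPA, 8.72, 7.47 and 8.57 under DCB and 10.06, 9.79 and 10.19 on corn oil, so that both compounds lay below corn oil and CPA the lower (-2.55 ± 0.48, adjusted p = 0.00296). Snhg11, a noncoding host of small nucleolar RNAs, differed by -2.79 ± 0.50 (adjusted p = 0.00209). Dbp, a clock output transcription factor, measured 6.52, 9.13 and 8.56 under CPA and 11.04, 11.24 and 11.81 under DCB (-3.29 ± 0.74, adjusted p = 0.00915, and 0.064 without CPA replicate 1). Of 18 clock and output genes, 1 (Cry1) was higher and 2 (Dbp and Wee1) were lower, with a median of -0.08; Cry1 lost its call without any of 5 of the 6 arrays (all but CPA replicate 2) and Wee1 without CPA replicate 1 or 3 or DCB replicate 1.

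Mice with working receptors gave the same comparison for setting these differences against, and the arrays are separate. Of the 972 calls without the receptors, 770 (79.2%) had the same direction in WT and 689 (70.9%) in hCAR/hPXR mice, against 59.4% and 50.4% of all genes tested. Sult1e1 (6.30 in WT and 6.03 in hCAR/hPXR), Cyp17a1 (4.55 and 4.53), Cbr3 (-4.80 and -4.97), Abcc4 (-3.82 and -4.31) and Afp (-3.25 and -3.09) had differences of like size in the 3 genotypes. Serpina6 differed by -2.28 in WT and -3.15 in hCAR/hPXR mice. Of the 15 called NRF2 targets, 14 and 13 had the same direction in the 2 genotypes, and of the 13 acute phase genes, 11 and 13. Of the 8 called glucocorticoid-responsive genes, 5 and 8 had the same direction, of the 7 PPARα targets 7 and 5, of the 7 complement and coagulation factors 7 and 7, of the 5 interferon-stimulated genes 5 and 5, of the 5 CYP2B and CYP2C enzymes 4 and 3, and of the 5 pericentral genes 2 and 4. Cyp2b10 differed by 3.30 in WT and -0.07 in hCAR/hPXR mice, where CPA and DCB arrays both averaged above 12 log2 units (12.53 and 12.60); the difference from CARko/PXRko mice was 4.14 ± 1.09 (adjusted p = 0.063), which was not called.

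A test of the difference between genotypes called few genes. Against WT, 5 of 12795 genes (0.0391%) were called, and 1554 had an unadjusted p under 0.05. Ddit4 was raised more in CARko/PXRko than in WT mice (2.64 against 0.49; difference 2.15 ± 0.36, adjusted p = 0.0133) and Bdh1 was lowered more (-3.15 against -0.86; difference -2.29 ± 0.37, adjusted p = 0.0132). Itih5, of the inter-alpha-trypsin inhibitor family, was lowered in CARko/PXRko mice (-2.35) and not in WT (0.07). Nebl, a nebulin relative, and Kcnk1, a potassium channel, differed by 3.09 and 2.04 in WT and by -0.15 and -1.10 in CARko/PXRko mice. Lcn2 (4.77 against -0.50 in WT; adjusted p of the difference 0.099), Car3 (-3.68 against -0.09; 0.23) and Dbp (-3.29 against 0.04; 0.22) had unlike values whose difference was not called. Against hCAR/hPXR mice, 83 genes (0.649%) were called. One was the NRF2 target Nqo1, at 0.15 in CARko/PXRko mice and -2.03 in hCAR/hPXR mice (difference 2.18, adjusted p = 0.048); in WT it was -2.06 (adjusted p of the difference 0.099). These counts moved with single arrays: against WT from 1 (without WT CPA replicate 1 or WT DCB replicate 2) to 96 (without CARko/PXRko CPA replicate 3), and against hCAR/hPXR mice from 3 (without hCAR/hPXR CPA replicate 1 or DCB replicate 3) to 1290 (without hCAR/hPXR DCB replicate 1). Genotype and labelled duration of CPA change together in these tests and cannot be told apart.

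**Figure D5:**
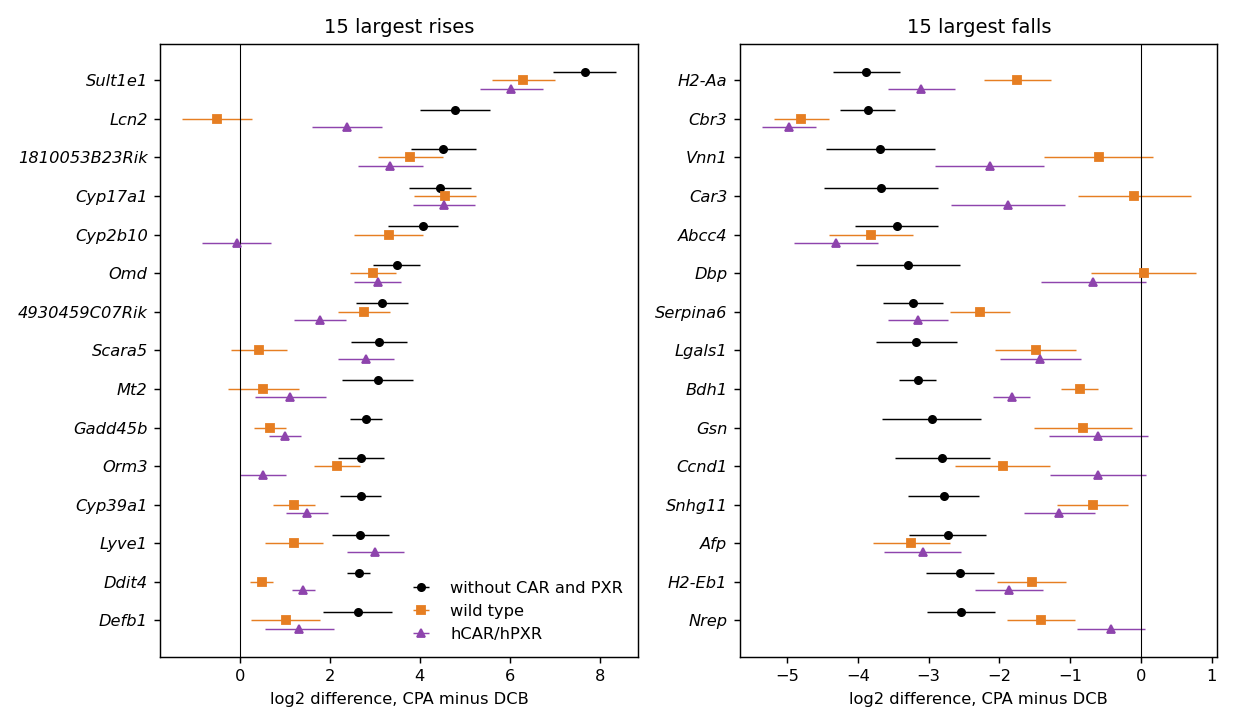
Log2 difference CPA minus DCB (x axis) of the 15 largest rises and 15 largest falls in CARko/PXRko livers (black). The same difference is given in WT (orange) and hCAR/hPXR livers (purple), with 3 arrays per group. Bars are 1 SE from 1 spread per gene shared by all 10 groups, so they are equally long in the 3 genotypes. Sult1e1, Cyp17a1, Cbr3, Abcc4 and Afp lie close together in the 3 genotypes, while Lcn2, Car3, Dbp and Ddit4 lie near 0 in WT.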

How the data were processed

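Liver RNA of CARko/PXRko, WT, hCAR/hPXR and PXR knockout mice was measured on Affymetrix expression arrays. The deposited values are log2 signals that the authors made with RMA, per the submitters' processing notes; the RMA version is not given in the sources used here. No scanner signals were used, so background, saturation and batches could not be examined, and the number of arrays limits the precision. Of 45037 probe sets, 34945 carried 1 gene symbol, 932 several and 9160 none; symbols come from the platform annotation. Each of 18193 genes was represented by its single-gene probe set with the highest mean over the 30 arrays, and the 12795 genes above the array median on at least 3 arrays were tested.

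One model of the 10 group means over all 30 arrays was fitted with limma 3.58.1 (R 4.3.3; lmFit and eBayes), and all adjusted p-values are two-sided limma p-values with Benjamini-Hochberg adjustment over all genes tested. The threshold for a call was an adjusted p under 0.05, and the code was tested on simulated data. Differences are log2 ± SE, and a fold is 2 to that power.

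The arrays compared and the 50 gene lists (992 memberships, 805 tested) were chosen with earlier results of these data known. Genes were named by rule. The rule took the 15 largest rises and 15 largest falls among called genes whose arrays did not overlap (markers of other tissues aside). It also took up to 4 members per list with the smallest p, called or not, and not all of the uncalled ones are printed. Other called members, uncalled members given for contrast, and all genes called for DCB against corn oil were named after their values were seen. Promoters are the 250 bases before each start in RefSeq, GRCm38.p6. Replicate numbers did not pair the samples (correlations of same-numbered CPA and DCB deviations 0.13, -0.19 and 0.00). Alternatives are given in the closing section.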

Additional observations from a re-analysis of the deposited data

Results flagged for a closer look

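The difference between CPA and DCB itself differed between CARko/PXRko and WT livers, by limma's test of the difference, for 5 genes. CARko/PXRko minus WT was 2.15 for Ddit4 (adjusted p = 0.0133), -3.25 for Nebl (adjusted p = 2.66e-06), -2.29 for Bdh1 (adjusted p = 0.0132), -3.13 for Kcnk1 (adjusted p = 0.0366) and -2.42 for Itih5 (adjusted p = 0.0432). The value of Nebl came from WT, where CPA minus DCB was 3.09, against -0.15 in CARko/PXRko and 0.11 in hCAR/hPXR livers.

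Of the 83 genes whose difference was called against hCAR/hPXR livers, the 5 in each direction with the smallest p are given. The positive ones were Gng13 (0.91, adjusted p = 0.0209), 1700123O12Rik (0.89, adjusted p = 0.0378), Sst, the hormone somatostatin (1.06, adjusted p = 0.0378), Banp (0.84, adjusted p = 0.0407) and the glutamate transporter Slc1a3 (0.87, adjusted p = 0.0407). The negative ones were Parva, an integrin-linked actin-binding protein (-1.41, adjusted p = 0.0082), the lipid kinase Pik3c3 (-0.996, adjusted p = 0.0187), Nsmf (-1.74, adjusted p = 0.0209), Stradb (-1.02, adjusted p = 0.0209) and Tshz1 (-1.32, adjusted p = 0.0209). With only the groups compared in the fit, 0 genes were called by limma against hCAR/hPXR livers, and 1550 had an unadjusted p under 0.05.

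Probe sets that carry several gene symbols or none stood outside the comparison of genes. Of 3700 tested, 104 were called between CPA and DCB in CARko/PXRko livers, 65 higher and 39 lower under CPA.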

How the results depend on the processing

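The number of calls for CPA against DCB depended on the arrays in the fit, the model and the threshold. Against 972, limma called 7 genes with only the groups compared in the fit, 61 with only the 3 CARko/PXRko groups, 23 with array weights, 13 with a 2-fold threshold added, 548 with the muscle marker mean as a covariate, 504 without the arrays over 5 in muscle markers and 118 without those over 1. The cause was not tested. By construction the first 2 of these fits and the last 2 hold fewer arrays. The fold threshold asks for more than a difference from 0. The fits with array weights and with the covariate keep all 30 arrays. The main fit gives a gene 1 spread for all groups. Mean correlation with the own group ran from 0.938 to 0.976 on CARko/PXRko arrays, 0.983 to 0.993 on WT and 0.951 to 0.988 on hCAR/hPXR. The count was 946 without a filter on dim genes, 794 with a filter at the 75th percentile, 988 after quantile normalization was applied again (595 higher and 393 lower), 963 with arrays centred on their median (340 higher and 623 lower), 714 with probe sets averaged per gene (355 higher and 359 lower) and 967 with trend and robust eBayes. Leaving out 1 array gave 439 to 1370 calls. The CPA and DCB arrays of the 30 genes with the largest differences do not overlap, so leaving out arrays cannot reverse these. Of the 30 genes with the largest differences, 24 were called without any of the 6 arrays and 4 in all 20 settings, and 0 reversed; of 119 named genes called, 61 were called without any of the 6 arrays and 0 reversed.

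For the other comparisons, leaving out 1 array gave 1 to 96 calls for CARko/PXRko minus WT (main count 5), 3 to 1290 for CARko/PXRko minus hCAR/hPXR (83), 282 to 929 for CPA minus corn oil (702) and 6 to 72 for DCB minus corn oil (15). Without the arrays over 1 in muscle markers these counts were 3, 2, 584 and 7. With only the groups compared they were 6, 0, 136 and 0, and for the latter 0 by limma 706 genes had an unadjusted p under 0.05. With the replicate block the direct comparison had 1031 calls, and the others 6, 145, 711 and 13; the samples share only a number. The list counts without each array in turn, and without the arrays with other tissues, were alternatives chosen after seeing the data.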
